A study of Mus musculus with 6 samples.

Results

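NMDA receptor subunit genes were followed in cultured mouse cortical cells exposed to terahertz radiation. The genes were taken by name: every array probe annotated to Grin1, Grin2a, Grin2b, Grin2d or Grin3a was a member. That gave 14 probes for 5 genes, out of 56605 probes carrying 37074 gene names. Of the 14 probes, 12 were bright enough to be tested, among 40552 tested in all. The other genes of the family were not analysed here.

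NMDA receptors are glutamate-gated channels that also need a co-agonist, glycine or D-serine, and that pass calcium once depolarisation lifts a magnesium block. Each receptor combines GluN1, encoded by Grin1, with GluN2 or GluN3 subunits, which set its kinetics, magnesium sensitivity and anchoring. In developing cortex GluN2B (Grin2b) and GluN2D (Grin2d) are expressed early, and GluN2A (Grin2a) increases as synapses mature. GluN3A (Grin3a) is a subunit of young neurons that lowers calcium flow and magnesium block.

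The irradiated group comprised 3 cultures that received 3.1 THz radiation for 3 hours daily between days 5 and 9 in vitro. The control group comprised 3 cultures without irradiation. All 6 cultures came from cerebral cortex of C57/B6 embryos at embryonic day 16, were plated at high density, and were collected at day 12 in vitro. They are labelled neuron cultures, and markers of glial cells were also measured in them. The labels do not say whether the 3 cultures of a group came from separate dissections, so p-values measure no more than how these samples spread, possibly for technical reasons.

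Each culture was read on its own 1-colour array, and a level is given as log2 signal minus the log2 75th percentile of all probes on that array. The number of arrays, 3 per group, limits the precision. The 75th percentile itself was 841, 892 and 635 signal units on irradiated arrays 1 to 3, against 320, 465 and 708 on control arrays 1 to 3. Markers of neurons were well above background on every array for 7 of 7 genes, and their summed level lay between 8.23 and 8.92 in irradiated cultures, against 8.81 to 9.02 in controls. Excitatory neuron markers (6 of 6 genes) lay between 4.60 and 5.36 in irradiated cultures, against 4.71 to 5.46 in controls, and inhibitory neuron markers (5 of 5) between 6.90 and 7.10, against 7.08 to 7.56. Such a sum mostly follows its brightest genes. Of the inhibitory markers, Slc32a1, the brightest, differed by -0.33, Gad2 by -0.26 and Dlx2 by -0.36, while Gad1 differed by 0.003 and Dlx1 by 0.07. Astrocyte markers (6 of 6) lay between 7.13 and 8.25 in irradiated cultures, against 7.14 to 8.75 in controls, and microglial markers (7 of 7) between 3.57 and 4.68, against 3.29 to 4.28. Oligodendrocyte markers were above background throughout for 5 of 6 genes, all but Mobp, and lay between 4.89 and 6.86 in irradiated cultures, against 4.58 to 7.01 in controls. Precursor markers (5 of 5) lay between 5.52 and 5.65 in irradiated cultures, against 5.62 to 5.76 in controls. Of 4 endothelial markers, 2 were bright enough to be tested, with sums of -2.63 to -2.47 in irradiated cultures, against -2.79 to -2.11 in controls. In both groups the array numbered 1 had the highest inhibitory neuron, astrocyte, microglial, oligodendrocyte and endothelial sums. It also had the lowest neuron, excitatory neuron and precursor sums of its group. In such bulk RNA, fewer cells of a type and less RNA per cell cannot be told apart, and the part of cell composition in the results below was not tested.

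Several subunits are read by probes that lie far apart in the gene, some of them annotated to different transcripts, so the probe sequences are shown first. Positions are on mouse build mm9, as the array files give them, and all 14 probes read the minus strand. No exon annotation of that build was used. The first set is Grin1 on chromosome 2, shown because its probes differed in direction, as did those of Grin2a, Grin2b and Grin2d. Its brightest probe spans 25146927 to 25146986, the upstream mRNA probe 25174212 to 25174271, and a probe for an Ensembl transcript 25170176 to 25170235. Where fewer than 60 bases are given, they are the first 30 of the probe.

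Grin1 brightest probe (A_65_P18935): aagagggctgagccttctcttctgtctgca
Grin1 upstream mRNA probe (A_55_P2794809): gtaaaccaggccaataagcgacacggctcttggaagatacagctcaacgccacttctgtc
Grin1 Ensembl transcript probe (A_55_P2717085): tataaaagcaagtatcgaccataagaggtg

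The second set is Grin2a on chromosome 16. Here the brightest probe, at 9577803 to 9577862, gave a difference near 0, and a remote probe at 9991772 to 9991831 did not. The remote probe lies 413.909 kb from the brightest one, and each of its 3 reading frames holds at least 1 stop codon. Stops in every frame also occur in the Grin1 Ensembl transcript probe and in every Grin3a probe. As background, GluN2 subunits end in a short motif that binds the PDZ domains of scaffold proteins such as PSD-95.

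Grin2a brightest probe (A_55_P1980481): ggtaaacgttggatgtccaatagcacccta
Grin2a remote probe (A_52_P62744): tctccacttttctctcttcggtaaagtgat

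The last set is Grin2b on chromosome 6, shown because 1 of its probes separated the groups. Its brightest probe spans 135681653 to 135681712, the probe for a brain cDNA clone 135819781 to 135819840, and the upstream mRNA probe 136121705 to 136121764.

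Grin2b brightest probe (A_52_P1044964): aaggtgtttatctaaggaaggccattgaac
Grin2b cDNA clone probe (A_55_P2637044): tagatctccgaacaaacagatgccacaagt
Grin2b upstream mRNA probe (A_52_P367017): aacccttaattgccggagactccttaaatc

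Irradiated and control cultures were compared for subunit expression. None of the 12 tested probes reached an adjusted p under 0.05 by limma (Benjamini-Hochberg over 40552 probes), and none had an unadjusted p under 0.05. At that unadjusted threshold there were 2 with normexp background correction, 3 without control 2 and 2 without control 3. Over all probes, 0% passed the adjusted threshold, while 4.02% were higher and 4.99% lower at an unadjusted p under 0.05. Of the 12 probes, 6 lay higher and 6 lower in irradiated cultures, with a median difference of -0.0088, where the median over all tested probes was -0.05. The brightest probe of each of the 5 genes lay lower, and 6 of the 7 dimmer probes lay higher. Over the whole array 65.8% of the brightest probes of genes lay lower, against 55.9% of all tested probes. Of all 40552 tested probes 17878 lay higher, and 8941 of these were among the 26157 brightest probes of genes. Across the array, too, most of the dimmer probes of genes thus lay higher, while most of the brightest lay lower. With normexp 4 of the 12 probes lay higher and 8 lower. Before scaling, the mean log2 signal of all 12 was higher in irradiated cultures. The 75th percentile of all probes was 841, 892 and 635 on irradiated arrays 1 to 3, against 320, 465 and 708 on control arrays 1 to 3. How many of all probes were higher before scaling was not counted. The 5 brightest probes also lay lower after quantile normalisation, in the deposited log2 table (itself taken as quantile normalised) and with normexp. After quantile normalisation Grin3a lay at only -0.002 and Grin2a at -0.031. Over all genes 56.7% of the brightest probes lay lower after quantile normalisation, 56.6% in the deposited table and 76.7% with normexp. It was not tested whether the pattern of the members differs from that of other genes.

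**Figure D1:**
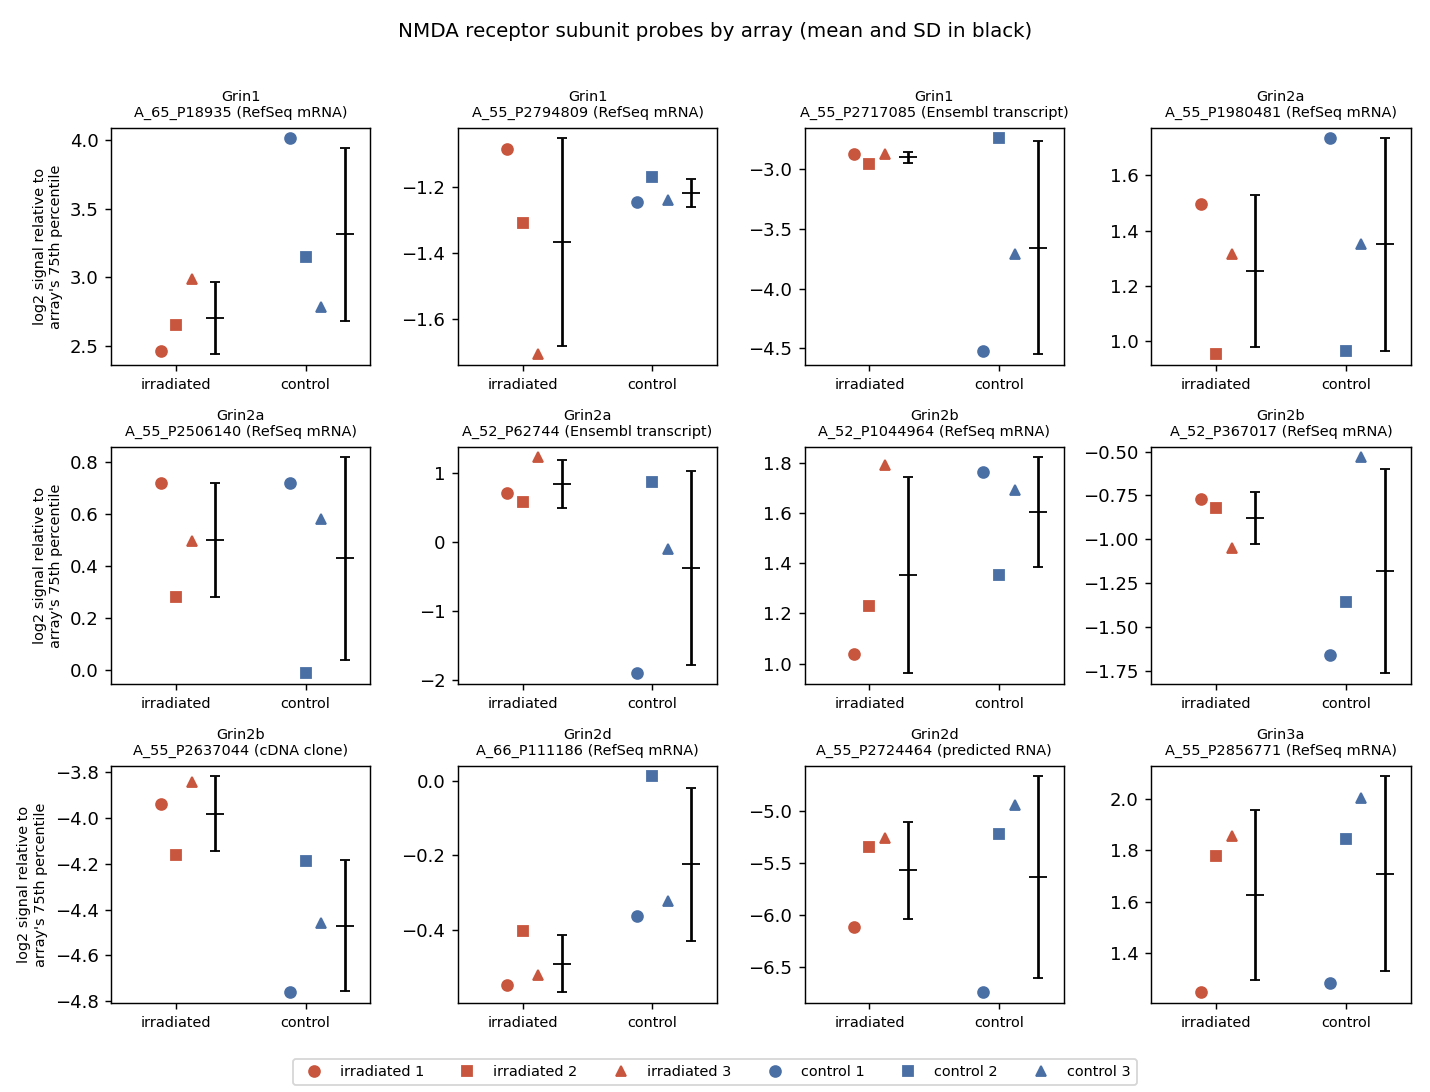
Level of each of the 12 tested probes (vertical axis, log2 units above or below the 75th percentile of its array) in irradiated and control cultures, with a symbol for each array and the mean and SD in black. Groups overlap in 10 panels; the Grin2b cDNA clone probe lies higher and the brightest Grin2d probe lower in all 3 irradiated cultures.

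Grin1 encodes the obligatory subunit that binds the co-agonist. Its brightest probe read 2.47, 2.66 and 2.99 in irradiated cultures 1 to 3, against 4.01, 3.15 and 2.79 in controls 1 to 3. Control 1 stood highest, and irradiated 3 lay above control 3, so the groups overlapped. The mean was 2.70 ± 0.26 in irradiated cultures and 3.31 ± 0.63 in controls (SD, n = 3 each). They differed by -0.61 (95% interval -1.41 to 0.19, limma adjusted p 0.535). Without control 1 the difference was -0.26, and without both arrays numbered 1 it was -0.14.

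Before scaling, the signal of this Grin1 probe hardly differed between arrays. It was 4654, 5627 and 5039 units on irradiated arrays, against 5153, 4116 and 4884 on control arrays. Its highest value was 1.37 times its lowest, while the 75th percentile of all probes varied 2.79-fold over the same arrays. On the level scale the arrays ran in reverse order of that percentile, except that irradiated 1 and 2 changed places. The part of the array's overall brightness in the Grin1 difference was not tested. For the brightest probes of the other subunits, the highest signal was 2.61 times the lowest for Grin2a, 2.10 times for Grin2b, 2.71 times for Grin2d and 3.94 times for Grin3a.

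**Figure D2:**
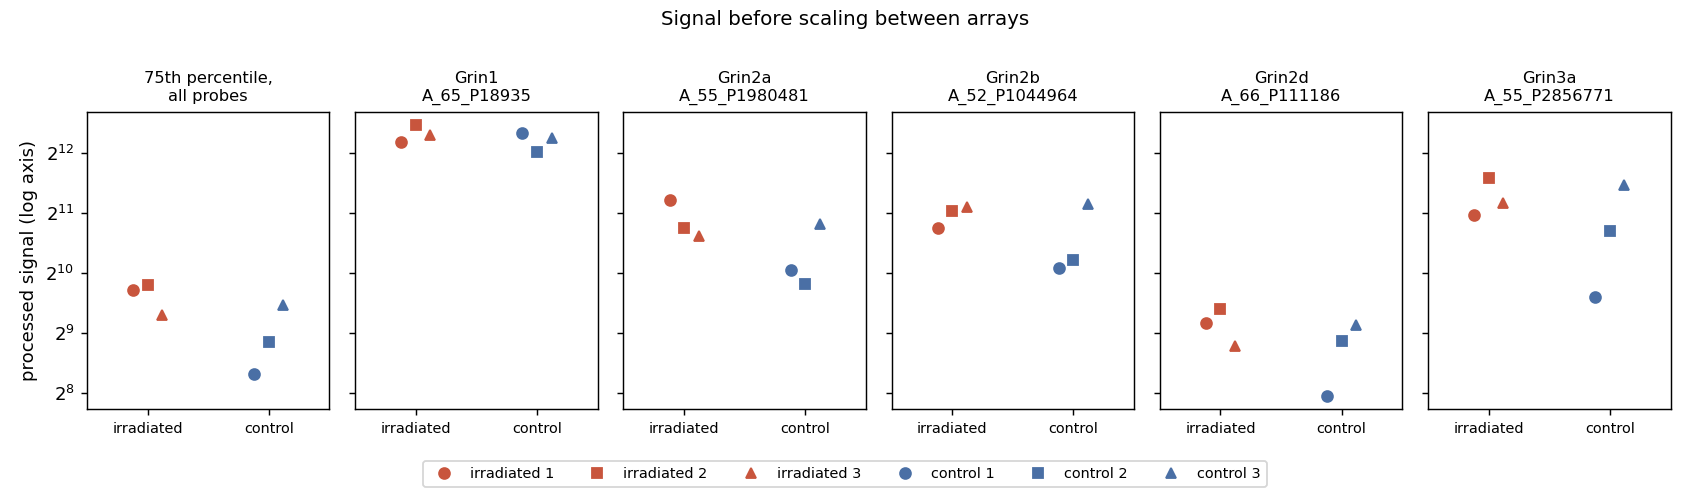
Processed signal before scaling (log axis) for the 75th percentile of all probes and the brightest probe of each subunit, with irradiated arrays left of controls and a symbol for each array number. Grin1 stays between 4116 and 5627 units, whereas the percentile runs from 320 to 892.

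The other Grin1 probes gave different values. The probe for an Ensembl transcript read -2.88, -2.96 and -2.87 in irradiated cultures, against -4.52, -2.74 and -3.71 in controls. The irradiated values lay close together, while the controls spread over 1.78 log2 units and included both the highest and the lowest array. The difference was 0.76 (95% interval -0.23 to 1.74, limma adjusted p 0.531). It was 0.33 without control 1, and 0.04 with normexp background correction. The upstream mRNA probe read -1.09, -1.31 and -1.71 in irradiated cultures, against -1.25, -1.17 and -1.24 in controls, and differed by -0.15 (95% interval -0.68 to 0.38). The mean of the 3 probes differed by -0.00098.

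Grin2a encodes GluN2A, the glutamate-binding subunit of mature cortical synapses. Its brightest probe read 1.49, 0.95 and 1.31 in irradiated cultures 1 to 3, against 1.73, 0.96 and 1.35 in controls 1 to 3. Same-numbered cultures lay close to each other, and the arrays numbered 2 were the lowest in both groups. The means were 1.25 ± 0.28 in irradiated cultures and 1.35 ± 0.38 in controls (SD, n = 3 each). They differed by -0.10 (95% interval -0.73 to 0.54, limma adjusted p 0.924). A second mRNA probe read 0.72, 0.28 and 0.50 in irradiated cultures, against 0.72, -0.01 and 0.58 in controls. Its difference was 0.07 (95% interval -0.55 to 0.69), so the 2 mRNA probes gave small differences of opposite sign.

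The remote Grin2a probe varied most of the 12 between arrays. It read 0.71, 0.57 and 1.22 in irradiated cultures, against -1.90, 0.87 and -0.10 in controls. Control 1 stood far below the other 5 arrays, with a signal of 85.8 units where those read 661 to 1478. Control 2 lay above irradiated 1 and 2, so the groups overlapped. The difference was 1.21 (95% interval -0.29 to 2.71, limma adjusted p 0.525), and 0.45 without control 1. Relative to the brightest Grin2a probe on the same array, this probe stood at -0.78, -0.38 and -0.09 in irradiated cultures, against -3.63, -0.10 and -1.45 in controls. The second mRNA probe stood between -0.82 and -0.67 in irradiated cultures, against -1.01 to -0.77 in controls.

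Grin2b encodes GluN2B, the glutamate-binding subunit that predominates in young cortical neurons and binds CaMKII. Its brightest probe read 1.04, 1.23 and 1.79 in irradiated cultures 1 to 3, against 1.76, 1.35 and 1.69 in controls 1 to 3. Irradiated 1 was lowest and irradiated 3 highest of the 6 arrays. The means were 1.35 ± 0.39 in irradiated cultures and 1.60 ± 0.22 in controls (SD, n = 3 each). They differed by -0.25 (95% interval -0.87 to 0.37, limma adjusted p 0.734). With both arrays numbered 1 left out the difference was -0.013.

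The Grin2b probe for a cDNA clone read -3.94, -4.16 and -3.84 in irradiated cultures, against -4.76, -4.19 and -4.46 in controls. Every irradiated value lay above every control, although irradiated 2 and control 2 were separated by only 0.03. The difference was 0.49 (95% interval -0.05 to 1.03), and its limma adjusted p of 0.520 was the smallest of the 12. It was 1 of 12 probes with all irradiated values above all controls, where 5.77% of all tested probes showed this. The probe was dim, with signals of 44.3 to 54.8 units in irradiated cultures, against 11.8 to 32.2 in controls. With normexp background correction its difference was -0.24, on the other side of 0. The upstream mRNA probe read -0.77, -0.82 and -1.05 in irradiated cultures, against -1.66, -1.36 and -0.53 in controls, and differed by 0.30 (95% interval -0.43 to 1.04). That difference was 0.07 without control 1, 0.63 without control 3 and 0.01 without both arrays numbered 1.

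Grin2d encodes GluN2D, a subunit of slow receptors that in cortex is found mainly in interneurons after early development. Its brightest probe, on chromosome 7 at 53088383 to 53088442, read -0.55, -0.40 and -0.52 in irradiated cultures 1 to 3, against -0.36, 0.01 and -0.32 in controls 1 to 3. All 3 irradiated values lay below all controls, irradiated 2 and control 1 being the nearest. The means were -0.49 ± 0.08 in irradiated cultures and -0.22 ± 0.20 in controls (SD, n = 3 each). They differed by -0.27 (95% interval -0.75 to 0.21, limma adjusted p 0.633). It was 1 of 12 probes with all irradiated values below all controls, where 9.71% of all tested probes showed this. With 1 array left out the difference ranged from -0.33 to -0.15.

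The other Grin2d probe spans 18441 bases of the genome, from 53090173 to 53108613, although it is 60 bases long, so it crosses at least 1 splice junction. It was annotated to a predicted RNA and was well above background on 2 irradiated and 1 control arrays. Its difference was 0.06 (95% interval -1.09 to 1.22), and it lay on the other side of 0 with normexp background correction, at -0.57. Without control 1 it lay at -0.49.

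Grin3a encodes GluN3A, which binds glycine and reduces calcium entry. Its brightest probe, on chromosome 4 at 49675661 to 49675720, read 1.24, 1.78 and 1.86 in irradiated cultures 1 to 3, against 1.28, 1.84 and 2.00 in controls 1 to 3. Irradiated minus control was -0.04, -0.07 and -0.15 for numbers 1, 2 and 3, and the arrays numbered 1 were the lowest in both groups. The means were 1.63 ± 0.33 in irradiated cultures and 1.71 ± 0.38 in controls (SD, n = 3 each). They differed by -0.08 (95% interval -0.74 to 0.58, limma adjusted p 0.941). The other 2 Grin3a probes, at 49717378 to 49717437 and 49783197 to 49783256, were not well above background on any array and were not tested. Their signals lay between 2.36 and 8.25 units in irradiated cultures, against 2.11 to 6.93 units in controls.

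**Figure D3:**
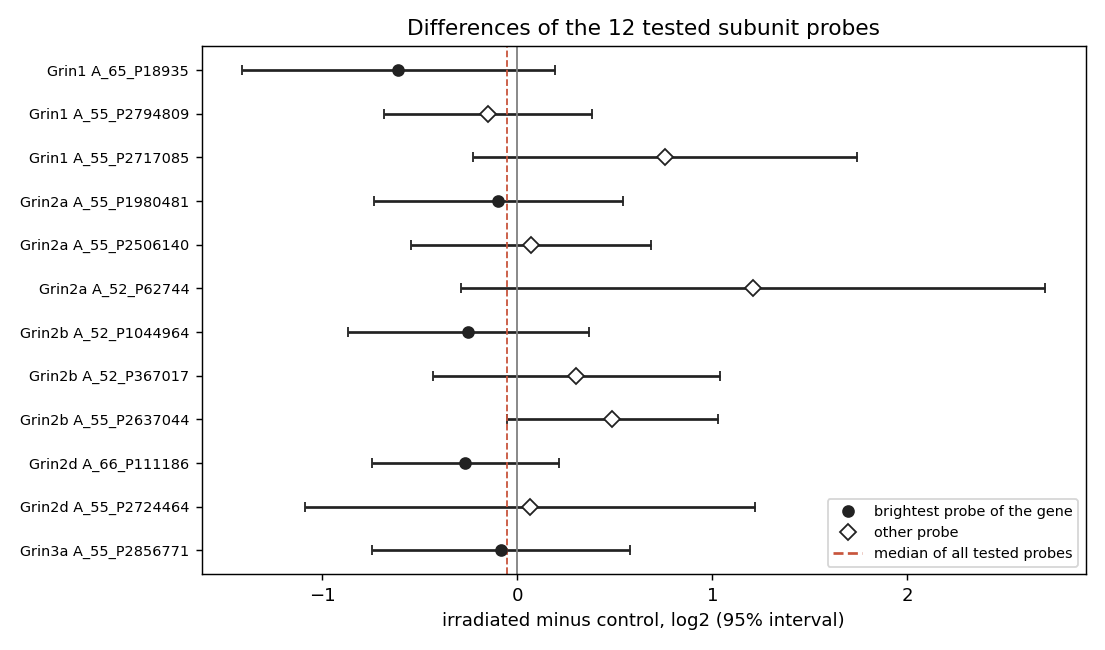
Difference between irradiated and control cultures (log2, horizontal axis) with its 95% interval for each of the 12 tested probes; filled circles are the brightest probe of a gene, open diamonds the others, and the dashed line is the median of all tested probes, -0.05. Each interval includes 0, and the point values run from -0.61 for the brightest Grin1 probe to 1.21 for the remote Grin2a probe.

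Control 1 often lay at the edge of the values. It was the lowest of the 6 arrays for 5 of the 7 dimmer probes and the highest for 2 of the 12 tested probes. How often control 1 was lowest or highest over all probes of the array was not counted. Control 1 also had the lowest 75th percentile and the smallest share of spots well above background, 64.91% where the other 5 arrays had 69.95% to 74.71%. In the marker sums given above, control 1 and irradiated 1 each stood at an edge of their own group. Within numbers, the differences of the remote Grin2a probe were 2.61, -0.30 and 1.32 for numbers 1, 2 and 3. Those of the brightest Grin1 probe were -1.54, -0.49 and 0.20 for the same numbers.

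The balance of subunits was read from ratios of brightest probes on the same array, from which a constant subtracted per array, such as the 75th percentile, cancels. Quantile normalisation does not cancel in this way. Only the change of a ratio between groups is interpretable, since probes differ in brightness. A relative increase of GluN2A over GluN2B accompanies the maturation of cortical synapses. The log2 ratio of Grin2a to Grin2b was 0.46, -0.28 and -0.48 in irradiated cultures 1 to 3, against -0.03, -0.39 and -0.34 in controls 1 to 3. Irradiated 1 was highest and irradiated 3 lowest, and the groups overlapped. The difference was 0.15, higher in 2 of 3 number-matched cultures (two-sided exact permutation test, p = 0.8, adjusted p 0.8 over 5 ratios). With 3 against 3 cultures, no such test can go below 0.1.

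The ratios of the other subunits to Grin1 also overlapped between groups. Grin2a to Grin1 stood at -0.97, -1.71 and -1.67 in irradiated cultures, against -2.28, -2.18 and -1.44 in controls, a difference of 0.51 (exact permutation test, p = 0.3). The difference was 0.36 for Grin2b to Grin1 (p = 0.4 in the exact test), 0.34 for Grin2d to Grin1 (p = 0.5, exact) and 0.53 for Grin3a to Grin1 (p = 0.6, exact). All 4 had an adjusted p of 0.75 over the 5 ratios, and each was higher in irradiated cultures for numbers 1 and 2 and lower for number 3. The 4 share the Grin1 probe as denominator. Before scaling the signal of that probe varied 1.37-fold over the arrays, while the 75th percentile of all probes varied 2.79-fold. The part of the array's overall brightness in these 4 ratios was not tested. After quantile normalisation the difference was 0.16 for Grin2d to Grin1 (p = 1, exact). Without control 1 the differences were 0.36 for Grin2a, 0.09 for Grin2b, -0.07 for Grin2d and -0.04 for Grin3a relative to Grin1.

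**Figure D4:**
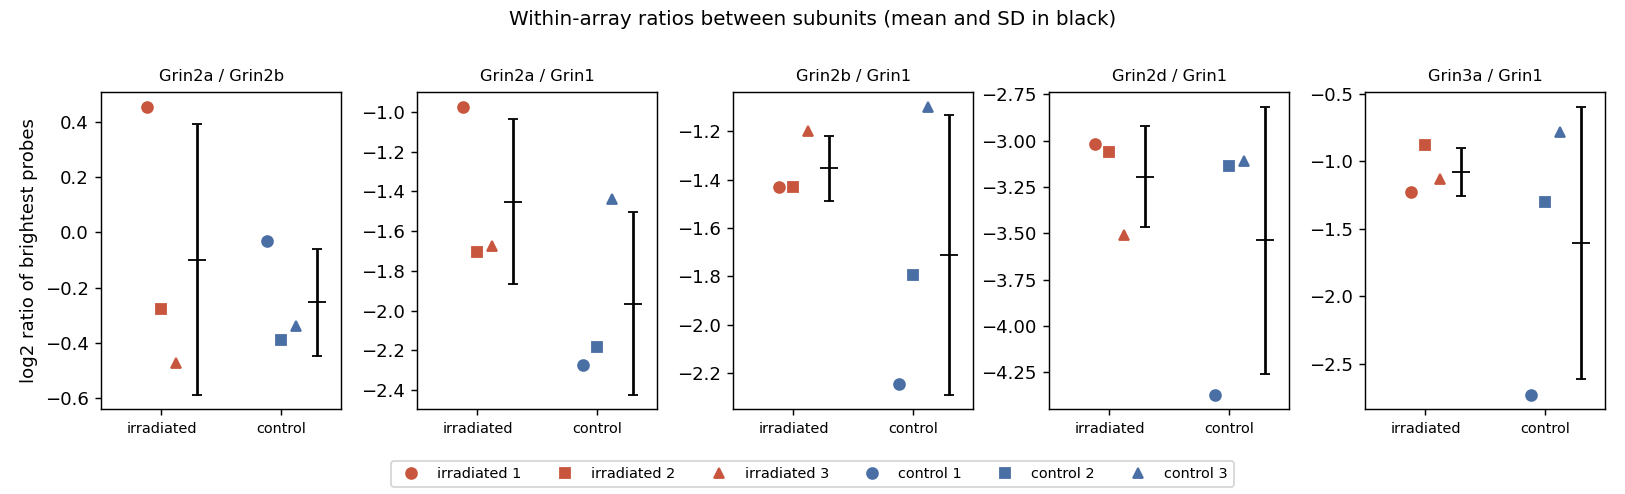
Log2 ratio of the brightest probes of 2 subunits on each array, with irradiated cultures left of controls and the mean and SD in black; the level of a ratio has no meaning of its own. The groups overlap in all 5 panels, and control 1 is the lowest array in the 4 panels with Grin1 as denominator.

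The genes whose profiles over the 6 arrays lay nearest to each subunit were found by the root mean square difference between profiles centred on their own means. For Grin1 they were Fbxw21 at 0.047 log2 units, Cma2 at 0.063 and Olfr414 at 0.065, which encode an F-box protein, a mast cell chymase and an olfactory receptor. For Grin2a they were Crk at 0.024, Cadps2 at 0.048 and Tanc1 at 0.049, encoding a signalling adaptor, a factor of dense-core vesicle release and a postsynaptic scaffold. Those for Grin2b were Mvd at 0.039, Nol8 at 0.051 and Zfp72 at 0.068, of which Mvd is an enzyme of cholesterol synthesis. Nmb, a neuropeptide gene, lay nearest to Grin2d at 0.034, followed by Nme4 at 0.044 and Adat2 at 0.054. Tars, the threonyl-tRNA synthetase gene, lay nearest to Grin3a at 0.029, followed by Clcn4-2 at 0.032 and Lamb1 at 0.036. Between 9624 and 15599 genes were compared with each subunit over the 6 arrays, and the names are a description only.

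Genes that anchor, regulate and supply NMDA receptors were read from lists arranged by role, each gene by its brightest probe. Of 82 listed genes 81 were tested, all but Dao. By limma none of the 81 reached an adjusted p under 0.05, and at an unadjusted p under 0.05 there were 2, Slc1a4 and Shmt1, both lower. Over all genes 2.39% were higher and 6.44% lower at that unadjusted threshold. Of the 81 genes, 19 were higher and 62 lower in irradiated cultures, with a median of -0.15. That is 76.5% lower, where 65.8% of all genes were lower with a median of -0.13. After quantile normalisation 45 were higher and 36 lower, with a median of 0.02 against -0.05 over all genes, so the direction of the list depends on the scaling. In 10 of the 81 genes all irradiated values lay below all controls, or 12.3%, where 12.1% of all genes showed this, and in 0 genes all lay above, where 3.85% of all genes did.

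Among 16 scaffold genes, 5 were higher and 11 lower, with a median of -0.11, and after quantile normalisation 8 were higher and 8 lower. Those with the smallest p were Dlg4, encoding PSD-95, at -0.54 (95% interval -1.09 to 0.01) with 3 probes from -0.54 to 0.01, and Dlgap3, a PSD-95-binding protein, at -0.47 (-1.12 to 0.19). Among 25 genes of kinases and calcium signalling, 6 were higher and 19 lower, with a median of -0.20, against 17 higher and 8 lower after quantile normalisation. Camk2a, whose kinase docks on GluN2B, read 5.85, 5.90 and 6.58 in irradiated cultures 1 to 3, against 6.81, 6.23 and 6.67 in controls 1 to 3. Irradiated 3 lay above control 2, and the difference was -0.46 (-1.12 to 0.20), with probes from -0.46 to 0.65.

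The co-agonist supply list held the 2 smallest p values of the 81 genes. Of its 11 tested genes 0 were higher and 11 lower, with a median of -0.23, beside the 65.8% lower over all genes. After quantile normalisation 2 were higher and 9 lower, with a median of -0.10. Slc1a4, encoding a neutral amino acid transporter that carries serine, read 3.61, 3.57 and 3.71 in irradiated cultures 1 to 3, against 4.32, 4.66 and 3.995 in controls 1 to 3. All irradiated values lay below all controls, and the difference was -0.70 with a 95% interval from -1.24 to -0.15 (limma unadjusted p 0.0191, adjusted p 0.52). Shmt1, the cytosolic enzyme that interconverts serine and glycine, read -4.57, -4.68 and -4.68 in irradiated cultures, against -3.90, -4.11 and -4.21 in controls. Its groups did not overlap either, and the difference was -0.57 (-1.03 to -0.11, limma adjusted p 0.52), while its second probe differed by 0.15. The Shmt1 probe that gave -0.57 was dim, at levels close to those of the Grin2b cDNA clone probe. Srr, encoding serine racemase, which makes D-serine, differed by -0.15 (-0.62 to 0.33), with 5 probes from -0.18 to 0.79.

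The remaining roles gave values of similar size. Of 10 trafficking genes 2 were higher and 8 lower, with a median of -0.19, and after quantile normalisation 6 were higher and 4 lower. Ap2m1, the adaptor subunit of clathrin-mediated endocytosis, differed by -0.36, with 4 probes from -0.71 to 0.27. Kif17, a motor that carries GluN2B vesicles, differed by -0.27 with probes from -0.27 to 0.97. All 5 glutamate uptake genes were lower, with a median of -0.13, and 4 of the 5 were higher after quantile normalisation. Slc1a1, a neuronal glutamate transporter, differed by -0.49, with 2 probes from -0.49 to -0.22. Slc1a3, an astrocytic one, differed by -0.26, with 2 probes from -0.26 to 0.21. Of 11 transcription factor and chromatin genes 4 were higher and 7 lower, with a median of -0.09, against 7 higher and 4 lower after quantile normalisation. Nrf1 differed by 0.22, with 3 probes from 0.21 to 0.56. Rest, a repressor of neuronal genes including Grin1 and Grin2b, differed by -0.23 (95% interval -0.77 to 0.30) with 3 probes from -0.23 to 0.24. Among 3 related genes, Grina differed by 0.13 (95% interval -0.33 to 0.59).

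**Figure D5:**
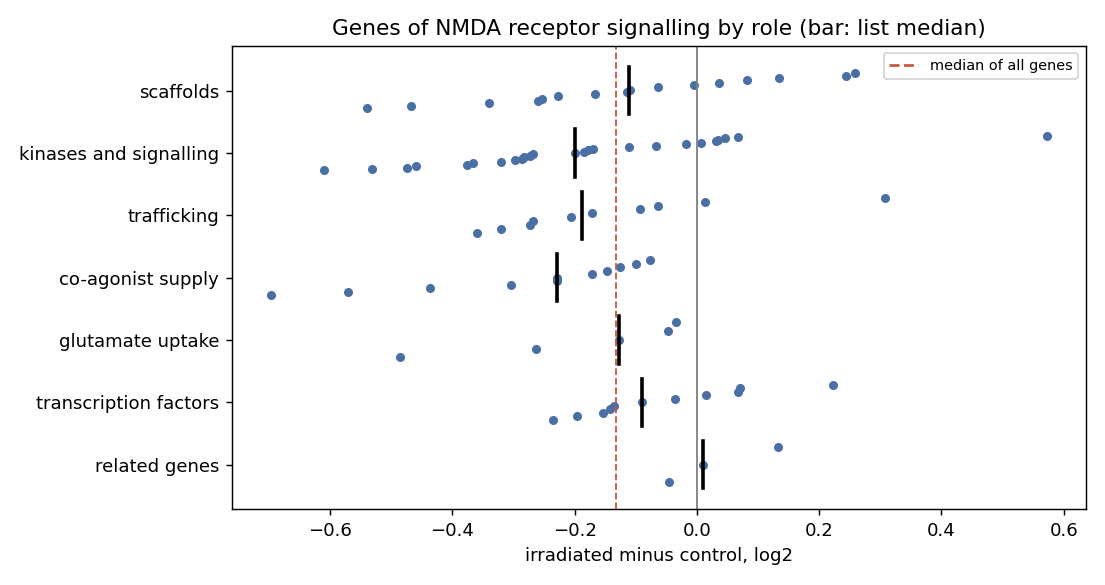
Difference between irradiated and control cultures (log2, horizontal axis) for 81 genes of NMDA receptor signalling, arranged by role, with a point for each gene and a bar at the list median; the dashed line is the median over all genes, -0.13. List medians lie between -0.23 for co-agonist supply and 0.0099 for related genes. Quantile normalisation changes the sign of every list median but that of co-agonist supply, and splits the scaffold genes evenly.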

How the data were processed

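The authors deposited scanner output for 6 arrays, in which processed signal is a linear intensity, background-subtracted and detrended within each array per the file headers. The submitters' processing notes name Agilent Feature Extraction 10.7.1.1. Another deposited table holds log2 values with equal quantiles in every column, hence taken as quantile normalised; no label names its tool. Outlier spots were dropped, log2 signals averaged per probe, and each array's 75th percentile over probes that are not controls subtracted. Of 56605 probes, 10 had no unmarked spot on an array, and 40552 were well above background on at least 3 of 6 arrays and were tested. The 26157 genes with a tested probe were each read by the probe with the highest mean. No spot was saturated. Marker sums are log2 of summed scaled signals.

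The fit used limma 3.58.1 (lmFit and eBayes, R 4.3.3), irradiated minus control without covariates, adjusted over all tested probes. Ratios used exact permutation tests. The fit was tested on simulated data. Members and lists were chosen with earlier results of these data known. Named were all member probes, the 3 nearest profiles per subunit among named genes whose SD was at least 1/2 of the subunit's, the 2 genes of smallest p per list, and Dlg4, Camk2a and Srr; a few of these are not reported here. Alternatives covered background correction, normalisation, the deposited table, filters, outlier spots, probe choice, the replicate block and arrays left out.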

Additional observations from a re-analysis of the deposited data

How the results depend on the processing

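No member probe and no listed gene passed the adjusted threshold in any alternative run, and the adjusted p of a member ranged from 0.295 to 1. Quantile normalisation and the deposited log2 table each called 4 probes over the whole array, none of them a member, against 0 as reported. Same-numbered arrays deviated together, with correlations of 0.46, 0.33 and 0.086 over all probes for numbers 1, 2 and 3. Over the brightest probes the correlations were 0.53, 0.42 and 0.22. Irradiated 2 and 3 did not correlate best with their own number, so the samples were taken to share only a number. Some marker sums did follow the number, however. The oligodendrocyte sum was 6.86, 4.89 and 6.03 in irradiated cultures 1 to 3, against 7.01, 4.58 and 6.29 in controls 1 to 3. The labels do not say whether same-numbered cultures belong together, so the fit with the replicate number as a block is given too. With the replicate block 0 members were called (smallest adjusted p 0.495), also with quantile normalisation added after seeing the data (0.508), and the ratio of Grin2a to Grin2b differed by 0.15 (exact p = 0.75, smallest possible 0.25). Direction turned in 13 of 184 probe comparisons and 7 of 65 ratio comparisons; the cause was not tested. With normexp these were the Grin2b cDNA clone probe (-0.24) and the predicted Grin2d RNA probe (-0.57). With both arrays numbered 1 left out they were that Grin2d probe (-0.22), Grin2a to Grin2b (-0.013) and Grin2d to Grin1 (-0.16). With all probes of a gene averaged, Grin2d to Grin1 stood at -0.10 and Grin3a to Grin1 at -0.081. With 1 array left out, the upstream Grin1 probe ranged from -0.29 to 0.020, the brightest Grin2a probe from -0.29 to 0.10, its second mRNA probe from -0.15 to 0.21, the predicted Grin2d RNA probe from -0.49 to 0.41 and Grin3a from -0.30 to 0.11. Likewise Grin2a to Grin2b ranged from -0.12 (without irradiated 1) to 0.34, Grin2d to Grin1 from -0.073 to 0.56 and Grin3a to Grin1 from -0.036 to 0.94. The median of all tested probes was -0.20 with normexp, against -0.05. Dim probes, such as the cDNA clone probe, lie near background and are the least precise.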
